A study of Mus musculus with 16 samples.

Results

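Trimethylation of histone H3 on lysine 4 (H3K4me3) was compared between hair follicle stem cells (HFSCs) of early anagen (EA-HFSCs) and of late catagen (LC-HFSCs). The comparison was made gene by gene from the H3K4me3 peak list of each population, which are 2 of the 16 samples and 2 of the 12 peak lists of the series. The cells of both populations were CD34+/α6-integrin+ cells sorted from the skin of wild-type CD1 x FVB mice, at PD22 to PD25 for EA-HFSCs and at PD38 to PD44 for LC-HFSCs. The labels give the mice as male, and the study's methods say that most of its work used both sexes. Each preparation pooled 15 to 20 mice, and the chromatin was cut to mononucleosomes before precipitation. The authors pooled the reads of independent experiments before they called peaks, so that each population had 1 list. The peaks could therefore not be compared between replicates here, and no test was made between the populations. No genetic change or drug separated the groups, and the age of the mice cannot be told apart from the stage of the hair cycle.

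H3K4me3 sits on nucleosomes around the transcription start site (TSS) of genes. It is written by the MLL and SET1 complexes, mostly at CpG-rich promoters, and removed by KDM5 demethylases. At genes for lineage choice it can share a promoter with H3K27me3, the repressive mark of the Polycomb complex, a state known as bivalent. HFSCs of the bulge divide briefly in anagen, when the follicle grows, and return to quiescence as the follicle regresses in catagen.

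A protein-coding gene of the mm9 annotation (22367 genes in all) carried the mark here where a peak shared at least 1 bp with the 3000 bp on either side of its start. A peak was lost when EA-HFSCs had one in this window and LC-HFSCs had none, and gained in the opposite case. Where a peak covered the start in both lists, the distance from the start to its upstream and to its downstream edge was compared. The score of a peak is 10 times the negative log10 of the authors' p-value, and the lowest score in both lists was 50. The EA-HFSC list held 21482 peaks with a median score of 612 and the LC-HFSC list 14718 peaks with a median score of 226. At the genes that kept a peak, the LC-HFSC score was a median of 0.219 times the EA-HFSC score, with quartiles of 0.152 and 0.307. Scores depend on read number and background, and by the study's methods the late catagen list was made from more reads, so a ratio of scores does not measure a change in the mark. The depth behind a peak is not known from the lists, and all intervals below are 95% intervals that cover counting error only.

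The sorted cells had a peak at most markers of their type. In both lists a peak lay at the start of 15 of 16 bulge and follicle stem cell markers and at 15 of 16 basal keratinocyte genes. Over all 22367 protein-coding genes, 13508 (60.4%) had a peak in EA-HFSCs, so a peak at a marker does not by itself show a cell type. Some markers of other skin cells also had a peak. Of 21 leukocyte markers, 2 had one in the early anagen list and 1 in the late catagen list, at H2-Ab1 in both and at Sfpi1 in the first alone, with none at Ptprc, Cd3e or Lyz2. Of 12 melanocyte markers, 4 and 3 had one, with Pmel, Mitf and Dct in both lists, Kit in the first alone, and none at Tyr, Tyrp1 or Mlana. Of 12 endothelial markers, 5 and 3 had one, with Kdr, Esam and Flt1 in both lists, Cldn5 and Sox17 in the first alone, and none at Pecam1 or Cdh5. Fibroblast markers had a peak at 9 and 7 of 13 genes, among them Sparc, Pdgfra, Col1a1 and Col1a2 in both lists, and neural markers at 5 and 2 of 12. The part of other cells in the results was not tested.

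No bulge gene with a peak in EA-HFSCs was without one in LC-HFSCs. Of 20 genes for bulge transcription factors, 17 had a peak in EA-HFSCs and all 17 had one in LC-HFSCs (0% lost, 95% Wilson interval 0 to 18.4%). Of the bulge and follicle markers, 15 were marked in EA-HFSCs and again all 15 in LC-HFSCs (0 to 20.4%). Over all genes marked in EA-HFSCs, 11.0% lost the peak, a share that lies inside both intervals. The median EA-HFSC score was 3100 in both lists, and of all genes with a score of 1000 or more 0.738% lost the peak, so no difference from other genes is shown. None of these 32 genes had an H3K27me3 peak at its start in EA-HFSCs.

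What differed at these genes was the width of the peak. Tcf7l2, a TCF factor that acts in Wnt signaling, had a peak of 12652 bp in EA-HFSCs and of 5164 bp in LC-HFSCs, and its downstream edge lay 11341 bp and 4145 bp from the start. Lrig1, a stem cell marker and brake on EGF receptors, went from 14025 to 7110 bp, with the downstream edge moving from 11837 to 5332 bp. The peak of Barx2, a homeobox gene, went from 15050 to 9344 bp, and that of Foxc1, a forkhead gene linked to stem cell quiescence, from 13875 to 9434 bp. At Lhx2, a LIM homeobox gene of the bulge, the total was 6162 and 3429 bp, with an upstream edge at 3058 and 1063 bp. The highest-scoring peak over any Lhx2 transcript start was 16949 and 14732 bp wide. Narrower peaks in LC-HFSCs were also found at Trps1 (4948 to 2969 bp), Id3, a BMP target (6887 to 4751 bp), Npnt (5242 to 3163 bp) and Col17a1, a hemidesmosome collagen (10431 to 8294 bp).

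At the other stem cell genes the width differed less, in part by more than the median change of −549 bp over all genes. The peak over Sox9, a factor that bulge stem cells need, measured 9290 bp in EA-HFSCs against 8369 bp in LC-HFSCs, and that over Id2, a target of BMP signaling, 9608 and 9487 bp. Over Cd34, the surface marker used in the sort, it was 6320 and 6192 bp, and over Krt15, a bulge keratin, 8953 and 8206 bp. Tbx1 measured 12377 and 11939 bp, Nfatc1, which holds bulge cells in quiescence, 11278 and 9936 bp, Zbtb16 6047 and 4717 bp, Tcf7l1 3698 and 3323 bp, Gli1 4271 and 3992 bp, and Gli2 7716 and 7448 bp. The markers Igfbp5 (6453 and 5849 bp), Dkk3 (5515 and 5309 bp), Ctgf (5383 and 5040 bp), S100a4 (5390 and 5334 bp), S100a6 (4497 and 4522 bp), Postn (4415 and 4580 bp), Fgf18 (4183 and 3849 bp), Lgr6 (3616 and 3178 bp) and Cdh3 (4363 and 3662 bp) lay in the same range. A wider peak in LC-HFSCs was seen at Lgr5, a Wnt-associated stem cell receptor, with 5292 and 6119 bp, and at Klf5, with 5676 and 6863 bp. The median change of the downstream edge was −738 bp over 15 of the transcription factors and −108 bp over 15 of the markers, beside −303 bp over all genes. The median EA-HFSC peak width was 7716 and 5383 bp in these lists. At all genes with an EA-HFSC peak wider than 4171 bp the median downstream change was −705 bp. A larger fall at the transcription factors than at other wide peaks is thus not shown.

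**Figure D1:**
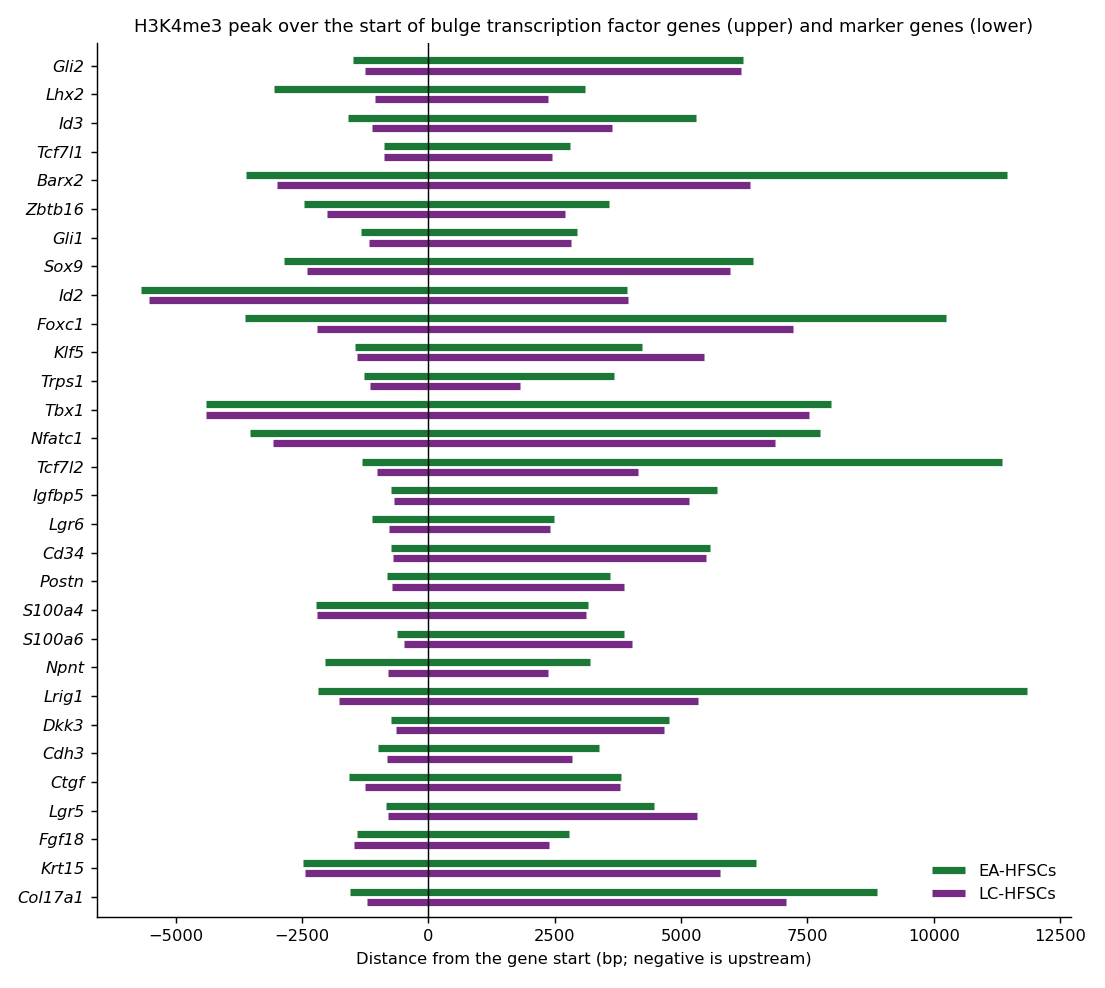
H3K4me3 peak over the start of bulge transcription factor genes (Gli2 to Tcf7l2) and of bulge and follicle markers (Igfbp5 to Col17a1), in bp from the gene start with upstream to the left; green bars are the EA-HFSC peak and purple bars the LC-HFSC peak, 1 list each. The downstream end drew in most at Tcf7l2, from 11341 to 4145 bp, and at Lrig1, from 11837 to 5332 bp, while Cd34 and Id2 kept nearly the same span.

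The remaining members of both lists could not be measured at the annotated start. Nfib, Foxp1, Runx1 and the α6-integrin gene Itga6 had no peak there in either list, and each had one at other annotated transcript starts in both. At Runx1, the highest-scoring of these peaks was 9524 bp wide in EA-HFSCs, against 7740 bp in LC-HFSCs, and at Nfib 24883 and 15889 bp. Nfix and Vdr kept a peak in the window, but it did not cover the start in both lists. With a window of 1000 bp, 1 of the transcription factor genes counted as lost.

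Basal keratinocyte genes, shared by bulge and epidermis, kept the peak at all 15 marked genes (0% lost, 0 to 20.4%), an interval that holds the 11.0% of all genes. Their median EA-HFSC score was 2308. Trp63 had one in both lists at another transcript start. The median changes were −184 bp upstream and −418 bp downstream. The peak of Krt5 measured 12031 and 7909 bp, and that of its partner keratin Krt14 8082 and 7644 bp. At Dsp, the gene of the desmosome protein desmoplakin, the LC-HFSC peak was the wider one, with 8560 and 10251 bp.

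The narrowing was seen across the genome. At 11420 genes, 94.9% of the 12028 that kept a peak, a peak covered the start in both lists. Their median peak width was 3234 bp in EA-HFSCs against 2575 bp in LC-HFSCs. The upstream edge lay a median of 1166 bp from the start in EA-HFSCs, against 962 bp in LC-HFSCs, with a median change of −150 bp (95% interval −156 to −145). The downstream edge lay at 1948 and 1508 bp, with a median change of −303 bp (−313 to −295). Upstream, the peak was shorter in LC-HFSCs at 8941 genes and longer at 2400, and downstream at 9646 and 1719. A shift of at least 500 bp was counted as a call. By this rule 18.9% of the genes were shorter and 0.639% longer upstream, and 35.4% were shorter and 1.18% longer downstream.

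**Figure D2:**
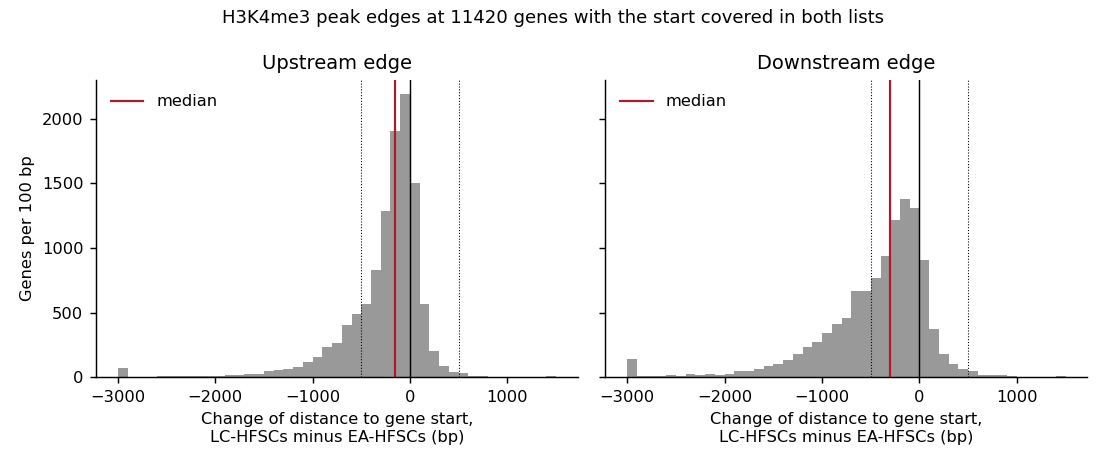
Change of the distance from the gene start to the upstream (left) and downstream (right) edge of the H3K4me3 peak, LC-HFSCs minus EA-HFSCs in bp, over 11420 genes in steps of 100 bp, with values beyond the axis counted in the end bars. The red line is the median, −150 bp upstream and −303 bp downstream, and dotted lines mark a shift of 500 bp.

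The signed change of the distance, LC-HFSCs minus EA-HFSCs, was lower downstream than upstream at 62.0% of these genes (61.1 to 62.9%). The 1480 genes with a second start in head-to-head orientation within 1000 bp had no such difference, with median changes of −312 bp upstream and −320 bp downstream. There the downstream change was the lower one at 50.5% (48.0 to 53.1%). At the 8296 genes with no other protein-coding start within 5000 bp, the medians were −125 and −299 bp and the share was 65.1% (64.0 to 66.1%). Wide peaks changed most. At the 2853 genes whose EA-HFSC peak was wider than 4171 bp, the median changes were −375 bp upstream and −705 bp downstream, and at the 2856 genes with peaks of up to 2551 bp they were −52 and −112 bp. As a ratio, the LC-HFSC distance was 0.785 times the EA-HFSC distance upstream and 0.764 times downstream at the median of the wide peaks, and 0.931 and 0.908 times at that of the narrow ones. These genes were grouped by the EA-HFSC width itself, so the contrast is a description.

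The same direction was found between the CD34-negative cells sorted beside the HFSCs, and it was smaller. Over 11053 genes covered in all 4 lists, the upstream change was −150 bp (−156 to −144) in HFSCs and −85 bp (−90 to −80) in non-HFSCs. The downstream change was −308 bp (−318 to −298) and −157 bp (−162 to −150). A downstream fall of at least 500 bp was counted at 35.6% of these genes in HFSCs and 17.6% in non-HFSCs. With 1 list per population, this difference had no replicate check.

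Named groups of genes differed in how far the downstream edge moved. Cytosolic ribosomal protein genes, which are always on, had a median change of −631 bp downstream and −118 bp upstream. For splicing factors the values were −480 and −108 bp, for cell cycle genes −446 and −146 bp, and for Wnt receptors −598 and −298 bp. Proteasome subunits had −344 and −112 bp, and translation factors and tRNA synthetases −359 and −110 bp. The genes for S100 proteins had −30.5 and −57.5 bp, and TNF family genes −176 and −50 bp. All groups just named moved to shorter distances on both sides at the median. These medians rest on 77 ribosomal protein, 18 Wnt receptor, 22 TNF family and 8 S100 genes. Their median EA-HFSC peak widths were 3311, 5051, 2224 and 4366 bp. Differences between the groups apart from peak width were not tested. Genes with an H3K27me3 peak in EA-HFSCs had smaller changes downstream, with −193 bp (−217 to −163) over 866 genes, against −314 bp (−325 to −304) over the 10554 genes without one. Their downstream edge also lay nearer the start in EA-HFSCs, at a median of 1650 against 1972 bp. Over all genes the median downstream change was −150 bp at EA-HFSC scores of 200 to 500 and −340 bp at 1000 or more. A part of H3K27me3 apart from peak width and score was not tested.

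Several of the largest falls were over developmental gene clusters. Hoxb3 had the largest fall on the upstream side, from 45979 to 1558 bp, and the second largest downstream, from 12680 to 1518 bp. It was followed upstream by Bcl9l, a cofactor of β-catenin, with 22843 and 2143 bp, by 5730596B20Rik with 21215 and 1539 bp, and by Hoxc5 with 16526 and 511 bp. Pex16 (15019 and 591 bp), Hoxa2 (18137 and 3973 bp) and Hoxb2 (15180 and 2411 bp) were also among the first 8. In each of these genes, a peak of 1 list overlapped more than 1 peak of the other. Downstream, Hoxc6 had the largest fall, from 18744 to 5214 bp. Ssfa2 went from 16525 to 5955 bp, Myl6b from 9623 to 751 bp, Gyltl1b from 12288 to 3523 bp and Rnf167 from 10292 to 1900 bp. Tcfap2b, the gene of the AP-2β transcription factor, went from 17132 to 9100 bp within a single peak, and Gjb5, which encodes a connexin of gap junctions, from 9995 to 2009 bp.

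Rises were few, and the largest upstream one was at Lef1. Lef1 encodes a partner of β-catenin in hair growth, and its peak reached 1749 bp upstream in EA-HFSCs, against 4983 bp in LC-HFSCs, while its downstream edge moved from 3446 to 2595 bp. Upstream rises followed at Ndufa4l2 (389 to 3591 bp), Nrn1 (110 to 2666 bp), Nat6 (200 to 2602 bp), Gm5468 (70 to 2380 bp), Iqcd (99 to 1817 bp), Hs3st3b1 (1808 to 3504 bp) and Gm10129 (7059 to 8456 bp). In these 8 genes, a peak of 1 list overlapped more than 1 peak of the other. Downstream, the rises were at Myo5b (540 to 4117 bp), Fstl3, a binder of activin, (1648 to 5046 bp), Eif5a (361 to 3188 bp), Adora2b, an adenosine receptor, (2934 to 5743 bp), Sp8 (1383 to 4175 bp), Atp9a (430 to 2409 bp), Tef, a PAR bZIP factor of the circadian output, (1808 to 3670 bp) and Fam46b (1281 to 3109 bp). Adora2b, Sp8, Tef and Fam46b had 1 peak in each list there.

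Loss of the peak was more frequent at lower EA-HFSC scores. No peak below a score of 50 was listed, and at kept genes the LC-HFSC score was a median of 0.219 times the EA-HFSC score. Weak EA-HFSC peaks were thus nearer that limit, so the trend with score was in part fixed by it and is a description. Lost genes had a median EA-HFSC score of 181 and kept genes one of 1349. Among genes with an EA-HFSC score of 50 to 100, 90.2% (86.9 to 92.7%) had no LC-HFSC peak. The share was 74.2% at 100 to 200, 38.8% at 200 to 500, 5.12% at 500 to 1000 and 0.738% (0.576 to 0.945%) at 1000 or more. When only the 14718 top-scoring peaks of each list were kept, which removed EA-HFSC peaks below a score of 183, 732 genes (5.81%) lost a peak and 182 (1.86%) gained one. The LC-HFSC list holds 14718 peaks and was not cut, so this setting could only lower the losses and raise the gains. All 732 were among the 1480 reported losses. Of the 182, 24 were gained without the cut, and the others had an EA-HFSC peak that the cut removed. Losses outnumbered gains in both settings. In head-to-head gene pairs 2.21% (1.59 to 3.08%) of marked genes lost the peak, and 12.1% (11.5 to 12.7%) of the others did. On the X chromosome the share was 15.4% (12.2 to 19.1%), and over the 19 autosomes 10.8%.

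At every score, loss was more frequent where H3K27me3 was present in EA-HFSCs. For scores of 200 to 500, 58.7% (54.3 to 62.9%) of 501 genes with an H3K27me3 peak and 24.8% (21.7 to 28.1%) of 711 genes without one lost H3K4me3. For scores of 500 to 1000 the shares were 17.7% (14.4 to 21.7%) of 417 and 3.01% (2.41 to 3.76%) of 2491, and the intervals did not overlap. At 1000 or more they were 1.85% (0.897 to 3.76%) and 0.686% (0.527 to 0.891%). The contrast was also present among CpG-rich starts, those with an observed to expected CpG ratio of at least 0.6 in the 500 bp on either side. There 40.6% (37.8 to 43.4%) of 1196 genes with H3K27me3 and 1.97% (1.69 to 2.28%) of 8594 genes without it lost the peak. These groups also differed in their median H3K4me3 score, 531 and 1495.

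**Figure D3:**
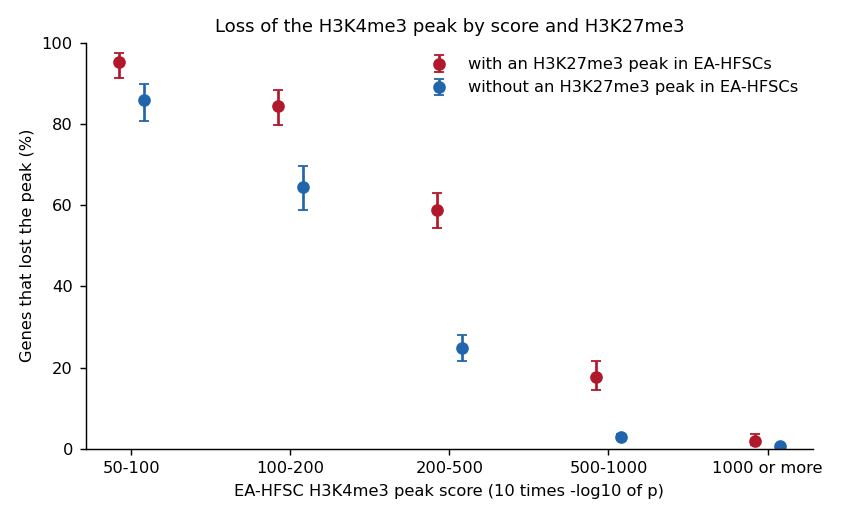
Percent of genes with an EA-HFSC H3K4me3 peak that had none in LC-HFSCs, by the score of the EA-HFSC peak, for genes with (red) and without (blue) an H3K27me3 peak in EA-HFSCs; bars are 95% Wilson intervals. The red points lie above the blue ones in each bin, with 58.7% against 24.8% at scores of 200 to 500.

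Factors of other lineages were among the lists with the highest share of losses. Basic helix-loop-helix lineage factors, which direct neural, muscle and mesoderm fates, lost the peak at 13 of 23 marked genes (56.5%, 36.8 to 74.4%), against 11.0% over all genes. All 13 had H3K27me3 in EA-HFSCs. The highest-scoring were Bhlhe22 (503), Tal2 (432), Twist1 (395) and Olig1 (289). Non-Hox homeobox and Pax genes lost it at 51 of 104 (49.0%, 39.6 to 58.5%), 48 of them with H3K27me3, led by Six2 (704), a factor of kidney progenitors, Irx6 (650), Pbx4 (547) and Emx1 (505), a factor of the forebrain. T-box genes lost 5 of 10 (50.0%, 23.7 to 76.3%), namely Eomes (564), Tbx18 (350), Tbx5 (237), Tbx19 and Tbx2, all with H3K27me3. Sox genes lost 6 of 18 (33.3%), led by Sox3 (436), Sox30 (273), Sox2 (238) and Sox11 (214), and the forkhead family 9 of 31 (29.0%), with Foxd2 (540), Foxc2 (327) and Foxa1 (190) beside Foxk2, whose peak lay at the rim of the window. Of GATA, KLF and zinc finger lineage factors, 13 of 49 were lost (26.5%), with Sp2 (803, at the rim of the window), Gata2 (544), Sall3 (446) and Klf8 (351) at the top. Median EA-HFSC scores were 344 for the helix-loop-helix list, 436 for the homeobox list and 1240 over all marked genes, so these lists also held weaker peaks. With equal numbers of top-scoring peaks, the shares were 41.2% (21.6 to 64.0%) and 32.1% (22.7 to 43.0%), against 5.81% over all genes.

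Lists of genes of excitable cells had shares from 22.2 to 56.2%. Ligand-gated channels and transmitter receptors lost the peak at 27 of 48 marked genes (56.2%, 42.3 to 69.3%), among them Chrna5 (730), a nicotinic receptor subunit, Grm4 (504), a glutamate receptor, and the muscarinic receptors Chrm1 (350) and Chrm2 (345). Potassium channels lost 23 of 49 (46.9%, 33.7 to 60.6%), among them Kcnn3 (767), Kcnq5 (529) and Kcnk4 (429). Sodium and calcium channels lost 7 of 19 (36.8%, 19.1 to 59.0%), with Cacna1h (459), Scn4b (274), Cacna1e (250) and Scn8a (172). Orphan and adhesion G protein-coupled receptors lost 15 of 47 (31.9%), with Gpr173 (772) and, by a peak at the rim of the window, Gpr84 (572) first. Transient receptor potential channels lost 4 of 18 (22.2%, 9.0 to 45.2%), an interval that holds the 11.0% of all genes, with Trpc4 (228) first. The median scores of the other lists, of 292, 403, 477 and 567, were all below the 1240 of all marked genes. With equal numbers of peaks, transmitter receptors and potassium channels lost 30% (16.7 to 47.9%) and 43.6% (29.3 to 59.0%). Sodium and calcium channels then lost 21.4% (7.57 to 47.6%), the G protein-coupled receptors 9 of 41 genes (12.0 to 36.7%) and transient receptor potential channels 17.6% (6.19 to 41.0%), against 5.81% over all genes. All 5 marked clustered protocadherins, adhesion proteins of neurons, were without an LC-HFSC peak, but none of them was left in the comparison with equal numbers.

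**Figure D4:**
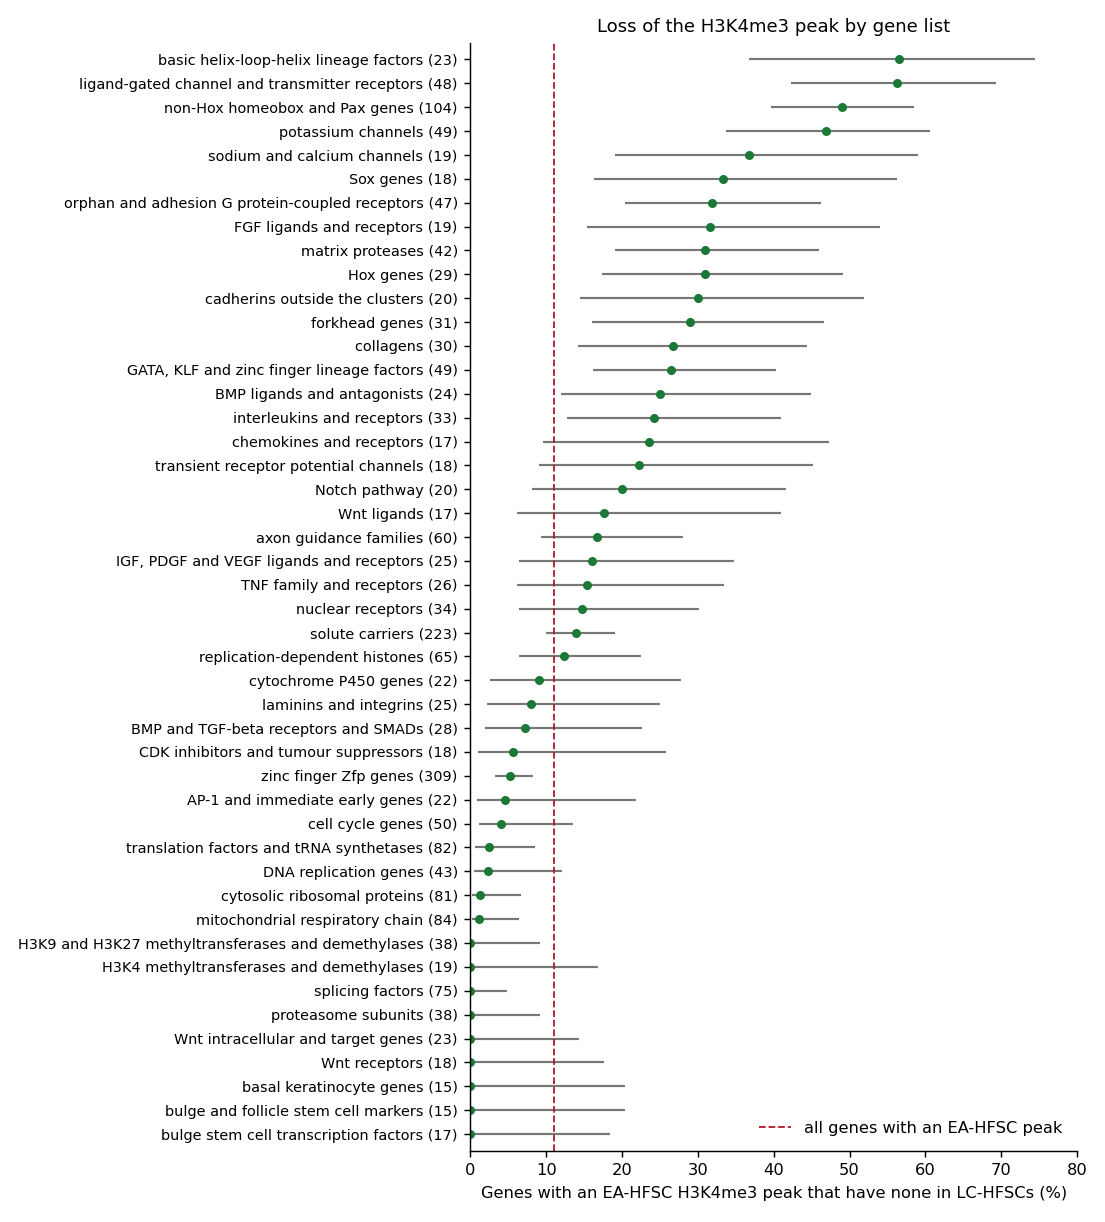
Percent of genes with an EA-HFSC H3K4me3 peak that had none in LC-HFSCs, for lists with at least 15 such genes (number in brackets); lines are 95% Wilson intervals and the dashed line is the 11.0% of all genes. Lineage factor and channel lists lie to the right of the line, up to 56.5%. Housekeeping and stem cell lists, whose median scores lay above the 1240 of all marked genes, lie at or near 0.

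In the signaling families, losses were counted at ligands, secreted modulators and some receptors. Over all genes the share was 11.0%. All 18 Wnt receptor genes kept the peak as did all 23 marked genes for Wnt transducers and targets. The intervals, 0 to 17.6% and 0 to 14.3%, hold the 11.0% of all genes, and the median EA-HFSC scores were 2559 and 1984. Of 17 marked Wnt ligands, Wnt9a (753), Wnt2 (276) and Wnt10b (191) lost it, and of 12 secreted modulators Rspo1 (377), Sost (287), Notum (219) and Sfrp2 (166) did. In the BMP pathway, which keeps bulge cells quiescent, 6 of 24 ligands and antagonists lost the peak (25.0%, 12.0 to 44.9%), led by Gdf6 (504), Chrdl2 (336), Bmp3 (218) and Bmp8b (121). Its receptors and SMADs lost it at 2 of 28 genes, Bmpr1b (558) and Acvr1c (379). In the FGF family 6 of 19 were lost, with Fgf5 (197), an inhibitor of hair growth, Fgf15 (180), Fgf12 (148) and Fgfr1 (140) highest. In the Notch pathway Heyl (344), Hes2 (120), Hes3 and Dll3 were the 4 of 20. With equal numbers of top-scoring peaks, the BMP ligand list lost 3 of 21 (14.3%, 4.98 to 34.6%), the FGF list 1 of 14 (7.14%) and the Notch list 1 of 17 (5.88%), against 5.81% over all genes. Intervals of these small lists are wide, and those of the Wnt ligands (6.19 to 41.0%), Wnt modulators (13.8 to 60.9%) and receptors (0 to 17.6%) overlap.

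Matrix and adhesion lists named here lost the peak at 8% to 31.0% of marked genes, against 11.0% over all genes. Matrix proteases lost the peak at 13 of 42 genes (31.0%, 19.1 to 46.0%), led by Adamtsl3 (507) and Adamts15 (505). Collagens lost it at 8 of 30 (26.7%, 14.2 to 44.4%), with Col5a1 (2074), Col2a1 (903), Col27a1 (343) and Col13a1 (286). Cadherins outside the gene clusters lost 6 of 20 (14.5 to 51.9%), with Cdh6 (248) and Cdh2 (222) first. Laminins and integrins lost 2 of 25 (8%, 2.22 to 25.0%), Itga11 (220) and Itga9. With equal numbers of top-scoring peaks, the shares were 25.6% (14.6 to 41.1%) for the proteases and 21.4% (10.2 to 39.5%) for the collagens. They were then 12.5% (3.5 to 36.0%) for the cadherins and 4.17% (0.739 to 20.2%) for laminins and integrins, against 5.81% over all genes. Of the solute carriers, 31 of 223 lost the peak (13.9%, 9.97 to 19.1%), close to the 11.0% of all genes.

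Lists of genes that every cell uses had few losses, against 11.0% of all genes. The median EA-HFSC scores of the lists named here lay between 1144, for DNA replication genes, and 1864, for splicing factors. Of all genes with a score of 1000 or more 0.738% lost the peak, so fewer losses than at other genes with strong peaks are not shown. Splicing factors lost 0 of 75 (0 to 4.87%) and proteasome subunits 0 of 38 (0 to 9.18%). Respiratory chain genes lost 1 of 84, Cox7a1, and cytosolic ribosomal proteins 1 of 81, Rps4y2. Enzymes that write or erase H3K4 methylation lost 0 of 19 (0 to 16.8%), and those for H3K9 and H3K27 methylation 0 of 38 (0 to 9.18%). The first of these intervals holds the 11.0% of all genes. In cell cycle genes the peak was absent at 2 of 50 (1.1 to 13.5%), Tpx2 (1055), which nucleates spindle microtubules, and Cenpf (747), a kinetochore protein. In DNA replication genes it was absent at 1 of 43 (0.412 to 12.1%), Cdt1 (1611), which licenses origins. Both intervals hold the 11.0% of all genes. Replication-dependent histones lost 8 of 65 (12.3%, 6.37 to 22.5%), a share near that of all genes, with Hist1h2ab and Hist1h3b (272 each, from 1 peak) first. With peaks under a score of 100 dropped from both lists, the count was 8 for cell cycle genes, 5 for DNA replication genes, and 5 in place of 2 for translation factors and tRNA synthetases, where 16.3% of all genes lost the peak. Histone genes are near-identical copies, and whether their reads were split or dropped in alignment was not tested.

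High-scoring losses were rare, and they were of 2 kinds, which were separated after the data had been seen. At 1425 of the 1480 lost genes (96.3%) the EA-HFSC peak overlapped no LC-HFSC peak. At the other 55 an LC-HFSC peak overlapped it, but no longer reached the window. Among the 20 lost genes with the highest score, 14 were of the second kind, and their EA-HFSC peak mostly lay near the rim of the window. They were Ager (2811), Lag3 (2717), Purb (2571), Gcc1 (2537), Foxk2 (2440), Cask (2379), Rab26 (2373), Zfp639 (2329), Tppp2 (2323), Dcun1d1 (2174), Akap3 (1859), Rbms2 (1784), 4930544O15Rik and Gm5887 (1717). The peak began 2983 bp from the start of Ager, 2328 bp from that of Lag3 and 1468 bp from that of Purb. An LC-HFSC peak was thus still present beside each of these genes.

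The other 6 of the 20 had a peak over the start in EA-HFSCs and none in LC-HFSCs. They were Col5a1 (2074), a fibrillar collagen, Smap1 (1820), Prrc2b (1785), Rarg (1732), a retinoic acid receptor of skin, Cuedc1 (1710) and Ppp2ca (1686), the catalytic subunit of a protein phosphatase. At Cuedc1, LC-HFSCs had a peak at another annotated transcript start. The EA-HFSC peak of Rarg was 10963 bp wide, that of Prrc2b 7002 bp, that of Ppp2ca 5256 bp and that of Col5a1 5095 bp. Further lost genes with high scores were S100a16 (1660), the amino acid transporter Slc38a4 (1618), Cdt1 (1611), and Krt17 (984), a keratin of hair follicles. In all, 33 genes lost a whole peak with a score over 1000. Both non-HFSC lists had a peak at 29 of these 33 starts (87.9%, 72.7 to 95.2%), and 6 of the 33 had H3K27me3 in EA-HFSCs. At all lost genes together, with a median score of 181, 44.7% (42.1 to 47.2%) had a peak in non-LC-HFSCs. Kept genes, with a median score of 1349, had a peak in non-EA-HFSCs at 99.5% and in non-LC-HFSCs at 98.5%. Of all 8401 genes with a score of 1000 or more, 379 had H3K27me3 in EA-HFSCs.

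The 250 bases before the start show what kinds of promoter were concerned. Sequences are from the NCBIM37 (mm9) genome, 5′ to 3′ on the strand of the gene, with each CpG (the letters CG) in capitals, since H3K4me3 favors CpG-rich DNA. At least 1 CG was found in 92.5% of all 22362 gene windows of this length, with a median of 8, of 16 at kept genes, 10 at lost genes and 2 at genes without a peak. Col5a1 and Krt17 lost a peak over the start, and were added to those chosen by score. The Col5a1 window holds 28 CG and the Krt17 window 7.
Col5a1 (chr2:27741695-27741944, plus strand): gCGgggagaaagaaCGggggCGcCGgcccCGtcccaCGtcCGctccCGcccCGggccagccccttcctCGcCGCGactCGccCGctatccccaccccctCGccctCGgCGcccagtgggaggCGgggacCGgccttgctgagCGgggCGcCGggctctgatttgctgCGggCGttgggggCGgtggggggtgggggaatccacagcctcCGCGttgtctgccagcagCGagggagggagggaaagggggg
Krt17 (chr11:100122344-100122593, minus strand): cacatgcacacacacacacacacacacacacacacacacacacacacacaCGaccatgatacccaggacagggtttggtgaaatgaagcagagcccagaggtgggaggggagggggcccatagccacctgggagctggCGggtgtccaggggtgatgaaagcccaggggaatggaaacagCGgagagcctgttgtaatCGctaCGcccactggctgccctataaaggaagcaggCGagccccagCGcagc
The next windows belong to the 3 lost genes with the highest score. They hold 4 CG at Ager, 8 at Lag3 and 0 at Purb, below or at the median of 8, where the peak itself lay at a distance.
Ager (chr17:34734557-34734806, plus strand): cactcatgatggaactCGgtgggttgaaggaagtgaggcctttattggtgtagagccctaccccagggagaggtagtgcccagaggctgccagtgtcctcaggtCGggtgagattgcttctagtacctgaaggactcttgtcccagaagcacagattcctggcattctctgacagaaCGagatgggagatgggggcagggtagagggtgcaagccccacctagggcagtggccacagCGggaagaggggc
Lag3 (chr6:124861724-124861973, minus strand): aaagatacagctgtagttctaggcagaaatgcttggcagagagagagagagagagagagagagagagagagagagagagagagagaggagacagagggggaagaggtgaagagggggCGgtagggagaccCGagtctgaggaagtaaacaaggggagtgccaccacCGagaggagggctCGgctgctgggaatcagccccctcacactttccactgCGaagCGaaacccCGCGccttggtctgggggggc
Purb (chr11:6369142-6369391, minus strand): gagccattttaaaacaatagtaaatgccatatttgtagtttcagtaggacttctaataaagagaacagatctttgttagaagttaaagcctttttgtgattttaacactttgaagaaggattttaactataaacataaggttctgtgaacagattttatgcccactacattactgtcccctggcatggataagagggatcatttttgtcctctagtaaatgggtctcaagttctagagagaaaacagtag

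A gained peak was rare. It was counted at 24 of 8859 genes that had none in EA-HFSCs (0.271%), with LC-HFSC scores of 50.0 to 199 and a median of 63.2. The highest was Ly6d (199), a surface protein of differentiating keratinocytes, with a peak of 3258 bp over its start. Gm8618 (193) had a peak of 4408 bp downstream of the start that overlapped an EA-HFSC peak outside the window. The kinase gene Dmpk (151), Fcgbp (147) and Mill1 (124) followed. Dmpk was not gained with a window of 5000 bp or with any transcript start. EA-HFSCs thus had a peak near this gene, outside the window of its annotated start. They were followed by Aldh3a1 (91.5), an aldehyde dehydrogenase, Serpina3i (75.5), Tmprss4 (74.7), Cpa4 (61.1), Nlrp6 (54.1), Ifit1 and 2010002M12Rik (53.1, from 1 peak), Oas1f (50.7) and Card14 (50.0). With peaks under a score of 100 dropped from both lists, 5 of the 24 were still gained. The others were 2310007B03Rik, Mesp2, Dgcr6, Scrg1, Gm10281, BC013712, D830014E11Rik, Pi16, Prkag3 and Dnase1l3, with scores up to 70.8. Mesp2 was the 1 gained gene in the lineage factor lists.

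Other readouts at the gained genes were compared with those of the lost genes and of genes with no peak. A peak in both non-HFSC lists was present at 17 of 24 (70.8%, 50.8 to 85.1%) and in at least 1 of them at 21 of 24. Of lost genes 42.8% (40.3 to 45.4%) had a peak in both of these lists. Of genes with no peak in either HFSC list, 3.42% had one in non-EA-HFSCs and 1.55% in non-LC-HFSCs. H3K27me3 in EA-HFSCs was present at 1 of 24, Nlrp6, against 53.5% (51.0 to 56.0%) of lost genes and 13.0% (12.3 to 13.7%) of genes with no peak in either list. Their median CpG ratio was 0.178, close to the 0.196 of genes with no peak in either list, and 0.56 at lost and 0.74 at kept genes. The part that CD34-negative cells in the sort may have in these peaks was not tested. The windows of the 3 highest-scoring genes are shown with their CpG numbers, 2 at Ly6d, 2 at Gm8618 and 1 at Dmpk.
Ly6d (chr15:74593998-74594247, minus strand): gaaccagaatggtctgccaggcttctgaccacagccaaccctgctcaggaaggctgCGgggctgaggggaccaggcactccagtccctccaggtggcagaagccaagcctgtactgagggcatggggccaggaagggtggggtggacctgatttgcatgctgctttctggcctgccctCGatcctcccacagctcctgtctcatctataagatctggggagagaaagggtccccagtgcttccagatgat
Gm8618 (chr1:136005665-136005914, plus strand): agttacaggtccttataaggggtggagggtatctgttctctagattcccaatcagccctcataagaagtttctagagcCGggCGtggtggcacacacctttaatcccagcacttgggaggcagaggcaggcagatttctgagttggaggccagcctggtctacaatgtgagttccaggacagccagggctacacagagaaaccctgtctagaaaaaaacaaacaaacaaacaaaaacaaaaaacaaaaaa
Dmpk (chr7:19668948-19669197, plus strand): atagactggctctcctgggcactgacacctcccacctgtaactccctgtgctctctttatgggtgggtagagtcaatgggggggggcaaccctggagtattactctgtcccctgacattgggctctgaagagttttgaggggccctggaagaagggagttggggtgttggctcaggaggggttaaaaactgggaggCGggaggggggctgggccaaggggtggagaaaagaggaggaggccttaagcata

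The Hox clusters show how a broad domain was counted. Hox genes set position along the body axis, and skin keeps part of them active. In EA-HFSCs, 1 peak of 58660 bp with a low score of 85.0 ran from Hoxb8 past Hoxb3. In LC-HFSCs there were 3 peaks of 3077, 4615 and 3343 bp in its span, at and beyond Hoxb3, with scores of 235, 280 and 117. Hoxb4, Hoxb5, Hoxb6, Hoxb7 and Hoxb8 had no LC-HFSC peak in their windows and were counted as lost. Peaks covered 89994 bp of the Hoxb cluster in EA-HFSCs, against 37229 bp in LC-HFSCs. Over the Hoxa cluster they covered 65448 and 52312 bp, and all 8 marked Hoxa genes kept a peak. There the EA-HFSC peak of 27862 bp (score 141) over Hoxa5, Hoxa6, Hoxa3 and Hoxa7 faced an LC-HFSC peak of 25745 bp (score 327).

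**Figure D5:**
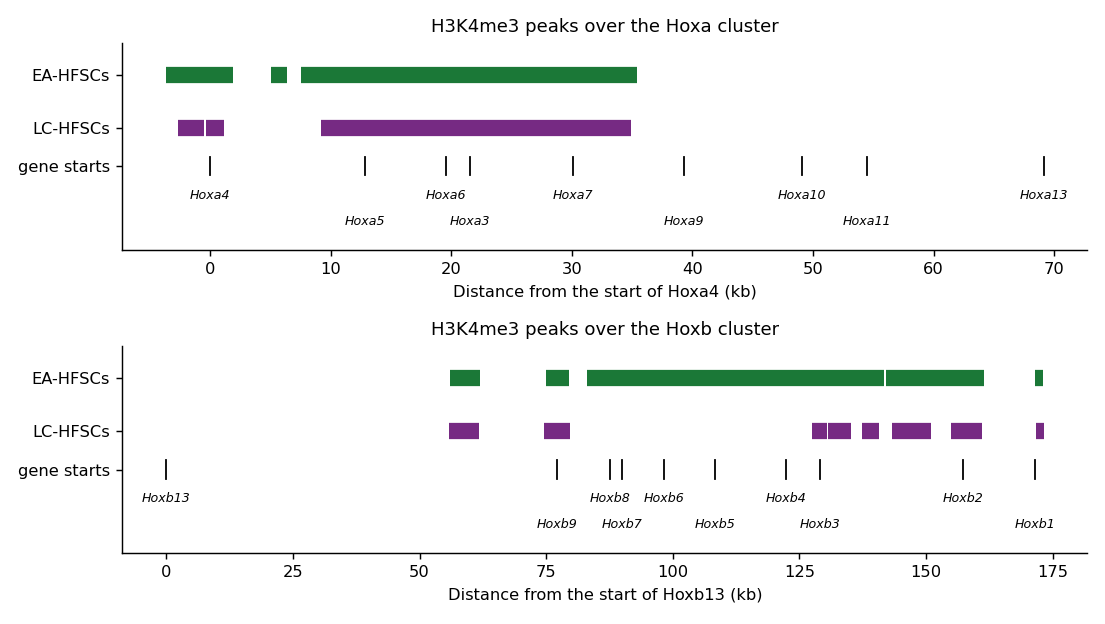
H3K4me3 peaks over the Hoxa cluster from Hoxa4 on (top, in kb from the start of Hoxa4) and over the Hoxb cluster (bottom, in kb from the start of Hoxb13), with EA-HFSC peaks in green, LC-HFSC peaks in purple and gene starts as black ticks, 1 list each. Between Hoxb8 and Hoxb4 only the EA-HFSC list has a peak, while the Hoxa5 to Hoxa7 stretch is covered in both.

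In the Hoxc cluster, Hoxc9 (136) and Hoxc12 lost the peak, and in the Hoxd cluster Hoxd9 (213) and Hoxd11, so that 9 of 29 marked Hox genes were counted (31.0%, 17.3 to 49.2%). With equal numbers of top-scoring peaks, the wide Hoxb peak was dropped from the EA-HFSC list. Then 1 Hox gene, Hoxd9, was lost and 6 were gained, over Hoxa3, Hoxa5, Hoxa6, Hoxa7 and Hoxb3, where the annotation holds 2 genes named Hoxa3. The 6 gained calls came from 2 wide EA-HFSC peaks whose scores, 141 and 85.0, lay below that limit.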

How the data were processed

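The authors aligned single-end reads to mm9 with Bowtie2, pooled the reads of independent experiments and used MACS (the macs14 command) to call H3K4me3 peaks, with IgG from the matching cells as control. The submitters' processing notes also name Trimmomatic 0.22. Each deposited list gives the position of a peak and a score, the authors' 10 times negative log10 of the p-value. No read counts or depths were used here. Scores of the 8 lists used were taken only to describe, rank or filter peaks. The 4 lists of non-HFSC H3K27me3 and H3K9me3 were not used.

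Gene starts came from GENCODE vM1 (NCBIM37, the same assembly as mm9), on which every peak lay within the chromosome lengths. Presence in the window, edges and Wilson or order-statistic intervals were computed in Python 3.11.15 with numpy 2.4.6, scipy 1.17.1 and pandas 2.3.3, and tested on simulated lists. No test between populations was possible with 1 list each. Named genes were all gained genes, the 20 lost genes with the highest score, up to 4 lost members of each of 63 lists, the 8 largest falls and rises of each edge, and all bulge genes. A few of these are not reported here. The members and lists were chosen with earlier results of these data known. RefSeq promoter tables of another build were not used.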

Additional observations from a re-analysis of the deposited data

Results flagged for a closer look

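Between the non-HFSC lists some genes moved opposite to the HFSCs. At 27 of the 1480 genes that lost the peak in HFSCs, non-LC-HFSCs had a peak and non-EA-HFSCs had none. Neither non-HFSC list had a peak at 398 of the 1480. Over all genes without a peak in non-EA-HFSCs, 83 of 9026 (0.92%) had one in non-LC-HFSCs. Ebf4 (537 in EA-HFSCs), Cyyr1 (448), Efnb3 (400) and Galnt12 (246) had the highest scores among them and were chosen after their values were seen. At 2 of the 24 gained genes, Dgcr6 and Dnase1l3, non-EA-HFSCs had a peak and non-LC-HFSCs had none. Of the 24, 19 had a peak in non-EA-HFSCs. Over all genes with a peak in non-EA-HFSCs, 755 of 13341 (5.66%) had none in non-LC-HFSCs. With 1 list for each population, the difference was not tested.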

How the results depend on the processing

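The number of lost genes stayed between 1411 and 2132 under 8 alternatives. It was 732 with the EA-HFSC list cut by score to the size of the LC-HFSC list. Gained genes numbered 22 to 29 under 7 alternatives, 15 when scores under 100 were dropped and 182 at equal list size. The alternative that dropped genes whose peak only left the window was added after seeing the data and gave 1425 and 22. The median upstream change stayed inside its interval except with no other start within 5000 bp, −125 bp. The median downstream change was −319 bp with a score of at least 100, −314 bp with peaks under 1 kb apart merged and −252 bp as bases covered within 3000 bp. Of the 20 highest-scoring lost genes, 12 were no longer lost with a window of 1000 bp and 14 with one of 5000 bp. With any transcript start, 6 of the 20 were no longer lost. Of the 24 gained genes, 5 were still gained with a score of at least 100. With scores under 100 dropped, 1104 of the 1480 lost genes were still counted as lost. The cause was not tested. The depth behind the peaks is not known from the lists. No paired analysis was possible because each population has 1 pooled list without replicate numbers.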

Other observations

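At 59 of the 12028 kept genes (0.491%) the LC-HFSC score was above the EA-HFSC score, against the general median ratio of 0.219. Beside 6 Hox genes they included Dpf1 (65.3 and 320), Cck (51.5 and 202) and Tk1, thymidine kinase, (112 and 195). S100a4, a marker of the bulge list, had 535 and 751 from a peak shared with S100a3 and S100a5, and Junb, an AP-1 subunit, 1446 and 1524. These genes were chosen after their values were seen.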
